A study of Homo sapiens with 4 samples.

Results

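The oligonucleotides described here carried a UGACH motif (H is A, C or U) around an adenosine that was unmodified in HEK293T, a line of human embryonic kidney cells. They were taken by design class and sequence alone: the deposited class of unmodified adenosines, with U, G, A and C at positions 49 to 52 and A, C or U at position 53. This gave 1107 of 11999 oligonucleotides, or 369 sequences of the 1500 in that class and the 3949 in all, each present as 3 oligonucleotides with different tags. The readout was position 51, the selected adenosine.

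The study asked whether METTL3–METTL14 itself prefers certain sequences. A pool of in vitro transcripts was incubated with the recombinant complex (methylated group, 2 libraries) or without it (unmethylated group, 2 libraries), and both groups were then precipitated with the same m6A-specific SySy antibody and read out by miCLIP2. In that method the reverse transcriptase stops at the antibody crosslink, so a count marks a crosslinked nucleotide. The RNA had never been in a cell, and a human genomic position of a sequence (GRCh38; the adenosine at position 51) says only where the sequence came from. Genes are named where that position lies in exactly 1 RefSeq gene, on either strand, as for 316 of the 369 sequences; 44 lie in several genes and 9 in none.

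METTL3 is the catalytic subunit that transfers a methyl group to adenosine in messenger RNA, and METTL14 holds the RNA substrate. Most m6A in cells lies in DRACH motifs (D is A, G or U, and R is A or G), among which those with G at −2 and −1 are the commonest. U at −2 belongs to the consensus but is a less common form of it. The antibody also crosslinks to unmodified RNA, so that the unmethylated libraries measure its background at each nucleotide.

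The selected adenosine and its surroundings are printed here for 9 of the 10 largest called rises, the only called fall and 4 well-counted sequences whose signal hardly changed. Each line gives 29 bases of the designed sequence from position 37 to position 65, written 5′ to 3′ with T for U, the name gives the chromosome and position of the adenosine (GRCh38), and the capitals mark the UGACH motif. All share the motif by design.
Unnamed (rise, chromosome 21, 45504026, plus strand): gcagtttccgttTGACTttcttcagttgg
ACTN1 (rise, chromosome 14, 68909337, minus strand): gcccgagctgatTGACTacgggaagctgc
Unnamed (rise, chromosome 17, 7570905, plus strand): caggcagaataaTGACAgtgactgtggtg
TEDC1 (rise, chromosome 14, 105492298, plus strand): tgggtgacgagaTGACTgtgtgccaggtg
HYOU1 (rise, chromosome 11, 119052824, minus strand): tctcaacagattTGACCgtaccctggggg
VMA22 (rise, chromosome 2, 130342163, minus strand): aactgcggagggTGACAaggaagaaggtg
MLLT1 (rise, chromosome 19, 6270644, minus strand): ccccgagcaatgTGACAtccagcacttcg
MSX1 (rise, chromosome 4, 4859921, plus strand): cggctgctgacaTGACTtctttgccactc
DLG5 (rise, chromosome 10, 77841999, minus strand): catgagtgagcgTGACCaggtcatctctg
HDAC5 (fall, chromosome 17, 44087588, minus strand): gggagggagcccTGACCatgccccgggag
Unnamed (not called, chromosome 1, 63323062, plus strand): cccgaggagggaTGACCctctccggcggc
PDS5A (not called, chromosome 4, 39977503, minus strand): ggcgcaaccaccTGACAgaggcccgggcg
TMEM145 (not called, chromosome 19, 42324161, plus strand): tccttccctgacTGACAacgtgcgtccac
ACAP3 (not called, chromosome 1, 1293827, minus strand): acgctgacatcgTGACActgtgagcgcgg

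The 4 libraries held between 10483825 and 13265092 counts. The 369 sequences took 8.60% to 9.27% of them, with a median of 813 to 994 counts per sequence and library and 1 to 3 sequences without any count. Position 51 summed to 5431 and 6469 counts without enzyme and to 9266 and 8257 counts with it. They were unevenly spread: 10 sequences held 51.8% of the unmethylated and 44.5% of the methylated counts, and 85 sequences had no count there in any library. Replicates differed in the totals of single sequences beyond counting error (chi-square divided by its degrees of freedom 31.6 without and 35.95 with enzyme). Whether replicates came from separate reactions is not stated, so p-values measure only the spread between these libraries, which may be technical.

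The antibody signal at UGACH adenosines was slightly higher in the methylated libraries. Summed over all 369 sequences, position 51 gave 518.0 and 537.8 CPM (counts scaled to the same library total, 1e6) without enzyme and 706.8 and 622.5 CPM with it. Both methylated libraries lay above both unmethylated ones. The means were 528 ± 13.98 and 665 ± 59.6 CPM (SD, n = 2 each), a ratio of 1.26, with an exact two-sided permutation p of 0.333, below which 4 libraries in groups of 2 cannot go. Set against all counts of the same oligonucleotides, the adenosine took 5.76 ± 0.243 per 1000 without and 7.64 ± 0.577 per 1000 with enzyme (SD, n = 2 each), a ratio of 1.33.

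The neighbouring nucleotides set the scale of this difference. The U at −2 carried far more signal than the adenosine, 1754 ± 157 CPM in unmethylated and 2096 ± 226 CPM in methylated libraries (SD, n = 2 each), a ratio of 1.19. The G at −1 went from 428 ± 3.03 to 403 ± 7.44 CPM and the C at +1 from 432 ± 37.9 to 390 ± 30.5 CPM (SD, n = 2 each), ratios of 0.942 and 0.903. At 4 of the 20 other offsets from −10 to 10 both methylated libraries lay above both unmethylated ones, as they did at the adenosine. Over all 20 the ratio ran from 0.887 to 1.25. The highest, at −7, rested on the first methylated library (1032 CPM against 545 CPM in the second). With positions 50 to 52 summed, the log2 difference of 0.33 at the adenosine shrank to 0.07. The groups then overlapped (exact permutation p = 0.667).

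Few single sequences passed the test. At position 51, sequences with at least 10 counts in at least 2 libraries were tested, with the tag copies of a sequence summed. This left 262 of the 369 untested. The test was edgeR's quasi-likelihood fit, adjusted by Benjamini-Hochberg over all 142938 sites of the table, at a threshold of 0.05. Of the tested sequences, 15 were higher in the methylated libraries (14.02%) and 1 was lower. Over all those sites 3.7% were higher and 2.01% lower. The median log2 fold change was 0.44 (quartiles −0.05 and 1.18) in the tested sequences and −0.01 over all sites. In 57 of them (53.3%) both methylated libraries lay above both unmethylated ones, against 26% of all sites, and in 12 (11.2%) both lay below, against 21.8%. In 38 the groups overlapped. Of the tested sequences 15 reached the count minimum only through the methylated libraries, and 2 of these, the chromosome 21 sequence and ACTN1, were among the 15 rises. Such a sequence was tested only because it was high with enzyme. With the total of the sequence as the offset, 16 tested sequences were higher (14.95%, against 1.8% of all sites), 14 of them the same sequences. DESeq2 called 9 of the 15 rises and no others, and without methylated replicate 1 edgeR called 7, all of them among the 15.

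The largest rise was in a sequence from chromosome 21 whose adenosine lies at position 45504026, in more than 1 annotated gene. Its counts were 0 and 4 without enzyme and 53 and 51 with it, so it reached the count minimum only through the methylated libraries. The groups were far apart, from 0.166 ± 0.235 to 3.94 ± 0.140 CPM (SD, n = 2 each), a log2 fold change of 4.37 ± 0.65 (SE; edgeR adjusted p = 9.62e-05). All 3 tag copies had a higher mean CPM in the methylated libraries, but 1 of them held 39 of the 53 and 37 of the 51 methylated counts. Only that copy reached the count minimum when the oligonucleotides were fitted separately, and only through the methylated libraries. No other tested position of this sequence rose as much, among 47. The size rests on very few unmethylated counts and ran from 3.47 to 8.60 over the alternatives, all of which kept the call.

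The TEDC1 sequence had the highest methylated signal of the 15 rises. TEDC1 encodes a protein of the tubulin epsilon and delta complex, and the adenosine lies at position 105492298 of chromosome 14. It held 55 and 87 counts without enzyme and 359 and 328 with it. The mean rose from 6.24 ± 1.40 to 26.1 ± 1.88 CPM (SD, n = 2 each), a log2 fold change of 2.02 ± 0.30 (SE; edgeR adjusted p = 9.98e-05). The total of the sequence hardly moved (23384 to 25507 raw counts per library on average, a log2 ratio of −0.10 in CPM). The rise was the largest among all tested positions of the sequence, which holds no other DRACH motif. With the oligonucleotides fitted separately it was not called, and the median log2 fold change over them was 1.33. All copies reached the count minimum in that fit. A single copy held 304 of the 359 and 269 of the 328 methylated counts.

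3 further rises stayed called without each library in turn, but only DLG5 also with the oligonucleotides fitted separately (the median log2 fold change over them was then 2.701 for the chromosome 17 sequence and 1.28 for VMA22). A sequence from chromosome 17 (position 7570905, in more than 1 annotated gene) held 4 and 14 unmethylated and 65 and 53 methylated counts, a log2 fold change of 2.45 ± 0.48 (SE). VMA22, which encodes an assembly factor of the vacuolar proton pump, held 57 and 45 unmethylated and 227 and 167 methylated counts and rose by 1.69 ± 0.32 (log2 ± SE; position 130342163 of chromosome 2). DLG5, a scaffold protein gene, had unequal unmethylated libraries (91 and 51 counts) but even methylated ones (258 and 265), and rose by 1.60 ± 0.32 (log2 ± SE; position 77841999 of chromosome 10). In the fit of separate oligonucleotides 1 DLG5 copy fell short of the count minimum and 1 reached it only through the methylated libraries. All copies of VMA22 reached it. Each of the 3 adenosines was the largest rise of its own sequence. Adjusted p-values from edgeR were 0.00196, 0.00159 and 0.00258.

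The other 5 of the 10 largest rises each lost the call without at least 1 library, and 4 of them are described here. ACTN1, the gene of an actin-crosslinking alpha-actinin, had 4 counts in each unmethylated library and 37 and 19 in the methylated ones, and it too reached the count minimum only through the latter. Its log2 fold change of 2.52 ± 0.61 (SE; edgeR adjusted p = 0.0130) went to 1.91 without methylated replicate 1 and to 1.86 against the total of the sequence, which itself went from 2240 to 4248 counts, and was called under neither, nor by DESeq2 (adjusted p = 0.0658; from 0.00228 to 0.400 over the 9 alternatives with an adjusted p). HYOU1, an endoplasmic reticulum chaperone gene, went from 14 counts in each unmethylated library to 64 and 54 and rose by 1.81 ± 0.41 (log2 ± SE). Nearly all of its counts came from 1 tag copy, and the call ended without methylated replicate 1, with 1.63. MLLT1, which encodes a reader of acetylated histones, held 32 and 46 and then 183 and 110 counts, a log2 fold change of 1.66 that fell to 1.19 and lost its call without methylated replicate 1. MSX1, a homeobox gene, held 12 and 19 and then 70 and 47 counts, also with 1.66. Its call ended without unmethylated replicate 1 (1.43), without methylated replicate 1 (1.29), by DESeq2 (1.66, adjusted p = 0.0642) and with the oligonucleotides fitted separately (median 1.74).

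The called rises outside the 10 largest were smaller. H6PD, which encodes a glucose-6-phosphate dehydrogenase of the endoplasmic reticulum, had the highest signal of the called UGACA sequences, with 8.97 and 5.90 CPM without and 26.2 and 10.3 CPM with enzyme. Its methylated libraries were far apart, and its log2 fold change of 1.29 ± 0.36 (SE; edgeR adjusted p = 0.0352) fell to 0.42 without methylated replicate 1 and to 1.04 without unmethylated replicate 2, in both cases without a call. It was not called by DESeq2 (1.28, adjusted p = 0.0721) or with the oligonucleotides fitted separately (median 1.21). TSC2, ZSCAN25 and SP1 lie outside the naming rule and were named after their values were seen. TSC2, whose product tuberin restrains the mTORC1 kinase, held 13 and 16 and then 56 and 42 counts (log2 fold change 1.497). ZSCAN25, a zinc finger gene, held 45 and 76 and then 174 and 190 counts (1.34). SP1, the gene of a transcription factor that binds GC boxes, had 4.01 and 3.57 and then 7.86 and 8.44 CPM (1.07; edgeR adjusted p = 0.0494). The call ended for ZSCAN25 without unmethylated replicate 1 (1.06) and with the oligonucleotides fitted separately, over which the median was 0.38. It ended for TSC2 without unmethylated replicate 1 (1.42), unmethylated replicate 2 (1.58) or methylated replicate 1 (1.22), and by DESeq2 or with separate oligonucleotides. SP1 was not called without any of the 4 libraries (1.02 to 1.13), nor in the fit with the replicate number as a block (1.08, edgeR adjusted p = 0.0586), by DESeq2, without a count filter or with separate oligonucleotides. Over all its alternatives the adjusted p of SP1 ran from 8.09e-04 to 0.179.

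Among the 15 called rises, position 51 was the largest rise of its sequence in 8 and among the 3 largest in all 15. All 3 tag copies had a higher mean CPM in the methylated libraries in 12 of them and 2 copies in the other 3. These sequences were called for a rise at position 51 in the same counts. A high rank and agreement of the summed copies follow in part from that choice. In several rises, among them H6PD and SP1, most of the methylated counts came from a single copy. Tag copies share the 4 libraries and are not independent replicates.

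The only called fall went with the whole sequence. HDAC5, a class II histone deacetylase gene, held 205 and 266 unmethylated and 98 and 57 methylated counts at position 44087588 of chromosome 17. The signal dropped from 20.8 ± 1.81 to 5.89 ± 2.25 CPM (SD, n = 2 each), a log2 fold change of −1.85 ± 0.32 (SE; edgeR adjusted p = 5.40e-04), in all 3 tag copies. The total of the sequence went from 12164 to 4895 raw counts per library (log2 ratio −1.54 in CPM). Against that total the log2 fold change was −0.29 and not called (adjusted p = 0.728, with a range from 1.65e-06 to 0.728 over the 10 alternatives with an adjusted p). No UGACH sequence was called lower against its total.

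The sequences with the highest signal at position 51 were not called. A sequence from chromosome 22 (position 21002072, in more than 1 annotated gene) led with 504 and 666 unmethylated and 450 and 394 methylated counts, a log2 fold change of −0.72 (edgeR adjusted p = 0.122), with both methylated libraries below both unmethylated ones in CPM. It alone held 9.83% of all unmethylated counts at this position, and its total went from 17747 to 11730 counts per library. CERCAM held 326 and 344 and then 538 and 521 counts, and GFAP, the gene of the astrocyte intermediate filament, 276 and 321 and then 529 and 494. CACNA1H, a T-type calcium channel gene, held 234 and 339 and then 499 and 422 counts, and DNASE1L1, a deoxyribonuclease-like gene, 222 and 461 and then 516 and 395. Their log2 fold changes were 0.40, 0.52, 0.44 and 0.18. The total of the GFAP sequence went from 62411 to 100242 raw counts per library, with deeper methylated libraries, and against it the log2 fold change was 0.10. In CERCAM, GFAP and CACNA1H both methylated libraries lay above both unmethylated ones in CPM, whereas in DNASE1L1 the groups overlapped.

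Some well-counted sequences gave nearly the same signal with and without enzyme. TMEM145 held 249 and 286 unmethylated and 373 and 249 methylated counts, 23.8 ± 0.0184 and 23.6 ± 6.84 CPM (SD, n = 2 each), a log2 fold change of −0.03 ± 0.28 (SE). PDS5A, a gene of a cohesin regulator, held 45 and 31 and then 46 and 49 counts (0.05), and the sequence at position 63323062 of chromosome 1 held 37 and 63 and then 69 and 55 (0.06). ACAP3, which encodes an ARF GTPase-activating protein, held 31 and 27 and then 37 and 27 counts (−0.12). Groups overlapped in all 4. A missed threshold does not show that these adenosines were left without methyl groups, since standard errors were 0.28 to 0.40 on the log2 scale.

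The 262 sequences that were not tested had too few counts for a single-site statement. Their highest count in any library was 19. Summed, position 51 went from 24.5 ± 4.14 to 33.6 ± 1.38 CPM (SD, n = 2 each), a ratio of 1.37, with single libraries at 27.5, 21.6, 32.6 and 34.6 CPM. The mean CPM was lower with enzyme in 65 of them, 85 had no count there, and in the rest it was higher. The ratio over the tested sequences was 1.25.

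The ratios were close to each other for the 3 last bases of the motif. Summed signals went from 176 ± 4.94 to 219 ± 35.2 CPM in the UGACA sequences, from 196 ± 7.96 to 244 ± 12.2 CPM in the 157 UGACC sequences and from 156 ± 10.96 to 202 ± 12.2 CPM in the 94 UGACU sequences (SD, n = 2 each). The ratios were 1.24, 1.24 and 1.30. Differences between the log2 changes were −0.01 for UGACA against UGACC, −0.07 for UGACA against UGACU and 0.06 for UGACU against UGACC, with exact permutation p-values of 1, 0.667 and 0.333 (each 1 after Benjamini-Hochberg adjustment over the 3 pairs, and 0.333 the smallest possible). The first comparison turned to 0.29 and the second to 0.25 once the sequence with the most counts was left out of each pool. Of the tested sequences, 6 of 38 with UGACA, 4 of 44 with UGACC and 5 of 25 with UGACU were higher.

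Bases outside the motif are given as a description without a test. Called rises made up 6 of the 19 tested sequences with U at −3, 4 of 21 with A, 3 of 32 with G and 2 of 35 with C. The share was 14.02% over all tested sequences and 3.7% over all sites of the table. The chromosome 21 sequence and ACTN1, tested only through the methylated libraries, are both among the 6 with U. Summed over all sequences with that base, the ratios were 1.495 for U, 1.34 for A, 1.52 for G and 0.970 for C. The C group holds both the HDAC5 sequence and the leading sequence from chromosome 22, whose totals were lower in the methylated libraries. Per 1000 counts of the same oligonucleotides its ratio was 1.10, and 1.21 without the leading sequence. At +3, 5 of 28 tested sequences with A, 1 of 17 with C, 4 of 41 with G and 5 of 21 with U were higher.

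Predicted pairing of the adenosine, from the partition function of the 141 bases without tag and linker, was low in a like share of called and uncalled sequences, with no test made. The pairing probability was under 0.5 in 11 of the 15 rises (73.3%) and in 68 of the 91 sequences tested without a call (74.7%), with medians of 0.287 and 0.0816. Among the sequences not tested it was under 0.5 in 53.1%. These sequences also had a lower G and C content (median 53.2% against 61.7% and 64.5%) and a lower total (median 1752 counts over the 4 libraries against 34229 and 14377). What part pairing, composition or depth has in this was not tested.

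Other DRACH adenosines in the same RNAs are set beside the selected one here, with no test of the difference. The 369 sequences held 769 further DRACH adenosines, of which 208 were tested. Of these, 72 were higher (34.6%, against 3.7% of all sites of the table) and 1 was lower. Of the tested sites 65 reached the count minimum only through the methylated libraries, and 39 of the 72 higher ones are among these, so that such counts favour rises. In the GGACH sites 38 of 66 were higher (22 of them tested only through the methylated libraries), and in GAACH 12 of 33 (7 of them). Of the rest, 11 of 50 AGACH sites, 5 of 34 UGACH sites (14.7%) and 2 of 19 AAACH sites were higher. UAACH had only 6 tested sites, 4 of them higher. Summed without a count filter, GGACH sites went from 201 ± 11.1 to 638 ± 13.1 CPM (SD, n = 2 each; ratio 3.17) and the further UGACH sites from 118.6 ± 1.30 to 153 ± 16.2 CPM (SD, n = 2 each; ratio 1.29), close to the 1.26 at position 51. These ratios are given without a test of their difference.

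Of the 91 sequences whose position 51 was tested without a call, 59 had another tested DRACH adenosine and 23 had such an adenosine called higher. Among the 15 rises, 10 had a tested neighbour and 4 a called one. These are counts of sequences, whereas over all tested sites 3.7% were called higher. Of the 208 tested DRACH neighbours, 65 reached the count minimum only through the methylated libraries, and 39 of those 65 were called higher. How many such sites lie behind the 23 and the 4 was not counted, so these counts are not compared.

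The 4 sequences described next were chosen after their values were seen, for a large rise beside an uncalled UGACH, and do not stand for the rest. In each, at least 1 DRACH adenosine downstream was called higher while the selected UGACH was not called. The largest rise of each is written as above, with its motif in capitals in the middle of 29 bases.
TSC22D2, 42 nt downstream: cagcgcagactcGGACTttgtctttgggg
SF3A1, 52 nt downstream: acgaagctagtgGAACAgtacaccaaggt
SIRT3, 46 nt downstream: gctcatcaaccgGGACTtggtggggccct
SAFB, 69 nt downstream: cgggggcatgatGGACAgggatcacaaga

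In the TSC22D2 sequence the GGACU went from 39 and 59 to 877 and 975 counts, a log2 fold change of 3.98 ± 0.31 (SE; edgeR adjusted p = 1.19e-08). Its selected UGACU held 21 and 21 unmethylated and 48 and 37 methylated counts, a log2 fold change of 0.76. A UAACA and an AGACC of the same sequence were called higher too (2.52 and 2.00). In SF3A1, the gene of a splicing factor, the GAACA went from 23 and 24 to 367 and 316 counts (3.60), and the selected UGACU from 9.92 and 8.65 to 10.4 and 12.3 CPM (0.26). In SIRT3, a mitochondrial deacetylase gene, the GGACU went from 34 and 46 to 432 and 420 counts (3.16), and the selected UGACC from 31 and 29 to 64 and 49 (0.65). In SAFB, the gene of a scaffold attachment factor, the GGACA went from 30 and 32 to 171 and 228 counts (2.42), while the selected UGACU had 10.97 and 7.07 and then 5.87 and 6.56 CPM (−0.56). A GGACC and a UGACC of the SAFB sequence were tested without a call (−0.48 and −0.86). The difference between the sites of a sequence was not tested.

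Adenosines that cells do methylate in the same motif gave a higher ratio. The 162 UGACH sequences of the m6A class, chosen around adenosines methylated in HEK293T cells, went from 226 ± 8.26 to 407 ± 45.9 CPM at position 51 (SD, n = 2 each), a ratio of 1.80. Of their 47 tested sequences 13 were higher (27.7%, against 3.7% of all sites). How many of these were tested only through the methylated libraries was not counted. Within each library, the log2 ratio of this class to the unmodified one was −1.16 and −1.29 without and −0.69 and −0.73 with enzyme, a difference of 0.51. The libraries of the groups did not overlap, and the exact permutation p was 0.333, the smallest possible. The classes differ in the last base, UGACU being the most common form in the m6A class but 94 of the 369 sequences here. In UGACU alone the difference was 0.42 and in UGACA alone, with 23 sequences in the m6A class, it was 0.71, again each with an exact permutation p of 0.333. These splits by last base were added after seeing the data. Per 1000 counts of the same oligonucleotides the m6A class went from 4.45 ± 0.107 to 7.51 ± 0.652 (SD, n = 2 each; ratio 1.69). On that scale its methylated level was no higher than the 7.64 of the unmodified class, and its unmethylated level was below the 5.76 there. The difference between the classes was then 0.35, and 0.21 in CPM with positions 50 to 52 summed.

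Within the unmodified class, sequences with G at −2 gave the highest ratio of the 3 bases. The 299 GGACH sequences went from 291 ± 16.5 to 681 ± 27.8 CPM (SD, n = 2 each; ratio 2.34), and 47 of 91 tested ones were higher (51.6%, against 3.7% of all sites). How many GGACH or AGACH sequences were tested only through the methylated libraries was not counted. The log2 ratio of the GGACH to the UGACH sequences was −0.89 and −0.83 in the unmethylated and −0.01 and 0.09 in the methylated libraries, a difference of 0.90 (exact permutation p = 0.333). The 361 AGACH sequences were much closer to UGACH, with 561 ± 20.8 and 757 ± 46.4 CPM (SD, n = 2 each; ratio 1.35), and had 14 tested ones higher (13.7%) and 1 lower. Their log2 ratio to UGACH was 0.15 and 0.02 without and 0.16 and 0.22 with enzyme, a difference of 0.10 (exact permutation p = 0.333). That difference was 0.02 without the sequence with the most counts in each pool and 0.04 without unmethylated replicate 2, so that its size rests on single sequences and libraries.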

How the data were processed

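The authors deposited 1 table of whole-number counts of miCLIP2 truncation events at 141 positions of each oligonucleotide in each library; STAR 2.7.3a, bedtools 2.27.1 and FastQC 0.11.8 are listed in the submitters' processing notes, and the genome build is not given in the sources used here. Coordinates were taken as GRCh38 because 68 of 68 sequence windows with a unique match lay at the same place in RefSeq promoters of GRCh38.p14.

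The counts of the 3 tag copies of a sequence were summed. Positions with at least 10 counts in at least 2 libraries (142938 sites of the whole table) were tested for the methylated against the unmethylated group with edgeR 4.0.16 (R 4.3.3; TMM scaling, quasi-likelihood test, group only), adjusted by Benjamini-Hochberg, with calls at 0.05. The fit was tested on simulated data. CPM are counts scaled to a library total of 1e6, without TMM. Totals of single sequences are raw counts unless CPM is stated, and both methylated libraries held more counts than both unmethylated ones. Pooled values used all sequences and an exact permutation test over the 4 libraries. Fits against the total of a sequence used that total as an offset. Pairing was computed with ViennaRNA 2.7.2, and other steps with Python 3.11.15, pandas 2.3.3, numpy 2.4.6 and scipy 1.17.1. Alternatives tried were other count minimums, library totals as the scale, DESeq2 1.42.0, separate oligonucleotides, a replicate block and leaving out each library.

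Sequences were named by rule: the 10 largest called rises with groups that do not overlap, called falls, the 5 highest mean CPM, the called rise with the highest CPM for each last base, and the 5 smallest changes among uncalled sequences with at least 100 counts over the libraries. Some sequences that the rule names are not reported here. The members, lists and tests were chosen with earlier results of these data known. Counts are not independent molecules and the depth at position 51 was low (median of 1 to 2 counts per library).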

Additional observations from a re-analysis of the deposited data

How the results depend on the processing

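The count of called UGACH adenosines, 15, became 9 with DESeq2 and 7 with the oligonucleotides fitted separately, and ran from 7 to 15 with 1 library left out, lowest without methylated replicate 1. It was 11 to 16 under the other count minimums, scaling by library totals and the fit against sequence totals. Only 2 of the 15 rises, the chromosome 21 sequence and DLG5, stayed called under every alternative that gave a value, and 5 without each library in turn. In the fit of separate oligonucleotides fewer copies of these 2 reached the count minimum than of TEDC1 or VMA22. That setting therefore does not rank the rises. Called sites among the other DRACH adenosines, 72 of 208 tested, became 46 of 208 with DESeq2 and 45 of 164 with oligonucleotides fitted separately. With at least 50 counts in 2 libraries 41 of 67 were called, fewer sites but a larger share, as for the UGACH adenosines. With 1 library left out their median log2 fold change of 1.09 ran from 0.99 to 1.12. Over all sites tested, 5282 of 142938 were higher in the main fit and 3044 of 142938 with DESeq2. The like counts were 3904 of 46922 at 50 counts and 7402 of 194723 with separate oligonucleotides. The replicate numbers were not shown to pair the libraries (correlation −0.08 of within-group differences over 142938 sites). With the replicate block 14 adenosines and 74 other sites were called. The log2 pooled ratio of 0.33 cannot change with a block, because each group holds both replicate numbers. The pooled ratio kept its direction under all alternatives run, from 0.07 (positions 50 to 52 summed, where the groups overlapped) to 0.42 (without methylated replicate 2). The differences by last base had no stable direction. UGACA minus UGACC turned to 0.29 without the top sequence of each pool, to 0.0936 per 1000 counts and to 0.00911 with positions 50 to 52 summed, and ran from −0.12 to 0.11 with 1 library left out. UGACA minus UGACU turned to 0.25, 0.10 and 0.11 under the same settings and ran from −0.17 to 0.0352. UGACU minus UGACC turned to −0.00846 per 1000 counts and to −0.10 with positions 50 to 52 summed. The cause of these changes was not tested. The differences of the m6A class, GGACH and AGACH against UGACH kept their sign under all alternatives run. With 2 libraries a group no pooled exact permutation test can go below p = 0.333, and 262 of the 369 adenosines were too shallow to test.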
